A study of Mus musculus with 30 samples.

Results

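The cathepsins of the mouse hippocampus were followed through 10 genes, Ctsa, Ctsb, Ctsc, Ctsd, Ctsf, Ctsh, Ctsk, Ctsl, Ctss and Ctsz, out of 21412 genes with RNA transcript values. They were chosen by symbol, and all 10 were found in the values and passed the filter on low values. The choice was made with the HD minus Ctr results of these mice known, so the differences between HD and the other groups without selenium are described and not tested. Hippocampus RNA came from 30 male BALB/c mice, with 1 library per mouse and 5 mice in each of 6 groups. Ctr mice received control feed without added methylmercury (MeHg), LD mice feed with MeHg at 0.28 mg mercury per kg and HD mice at 5 mg per kg, for 11 weeks. These mice arrived at 2 to 3 weeks of age and had 5 days of acclimatisation. MeHg was added together with cysteine, and the Ctr feed held cysteine as well. Se_Ctr, Se_LD and Se_HD mice were labelled as given selenium with no, low dose or high dose mercury. The selenium dose, the mercury doses beside it and the age of these mice are not given in the sources used here. Between 5768208 and 11510521 reads were counted on genes per library. Values are normalised read counts, that is, reads divided by a scaling factor for each library.

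Cathepsins are proteases that work mainly in lysosomes, the acid compartments where cells break down proteins. They are made as inactive precursors, sorted to the lysosome by receptors for mannose 6-phosphate or by other carriers, activated there by cleavage, and held in check by cystatins and serpins. Ctsd is an aspartic protease and Ctsa a serine carboxypeptidase, while the other 8 are cysteine proteases. In brain, neurons and glia all need them, and Ctss, Ctsh, Ctsc and Ctsz are known for high levels in microglia, the resident macrophages.

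The level of the cathepsins was compared per kilobase of exon, in Ctr mice first. Ctsd was highest with 1051 ± 150.6 normalised counts per kb (SD, n = 5), followed by Ctsb, a cysteine protease with endopeptidase and carboxypeptidase activity, at 669 ± 59.0. Ctsl, a lysosomal endopeptidase, stood at 351 ± 57.5 and Ctss at 311 ± 13.8, and their ranges overlapped. Ctsf, a cysteine protease with a long propeptide, had 158 ± 31.0, Ctsz, a carboxypeptidase, 118 ± 23.3, and Ctsa, which also protects lysosomal glycosidases, 115 ± 10.9. Ctsf overlapped with Ctsz, and Ctsz with Ctsa. The lowest levels were 18.6 ± 3.27 for Ctsh, an aminopeptidase, 17.6 ± 5.11 for Ctsc, which activates serine proteases of immune cells, and 16.15 ± 5.39 for Ctsk, the collagen-degrading enzyme of osteoclasts. Each of these overlapped with its neighbour in the order. In HD mice Ctss moved from position 4 to position 3 with 732 ± 390.1 per kb, and Ctsz from position 6 to position 5 with 219.9 ± 102.5. In LD, Se_LD, Se_Ctr and Se_HD mice positions 1 to 5 held the same genes in the same order as in Ctr mice.

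**Figure D1:**
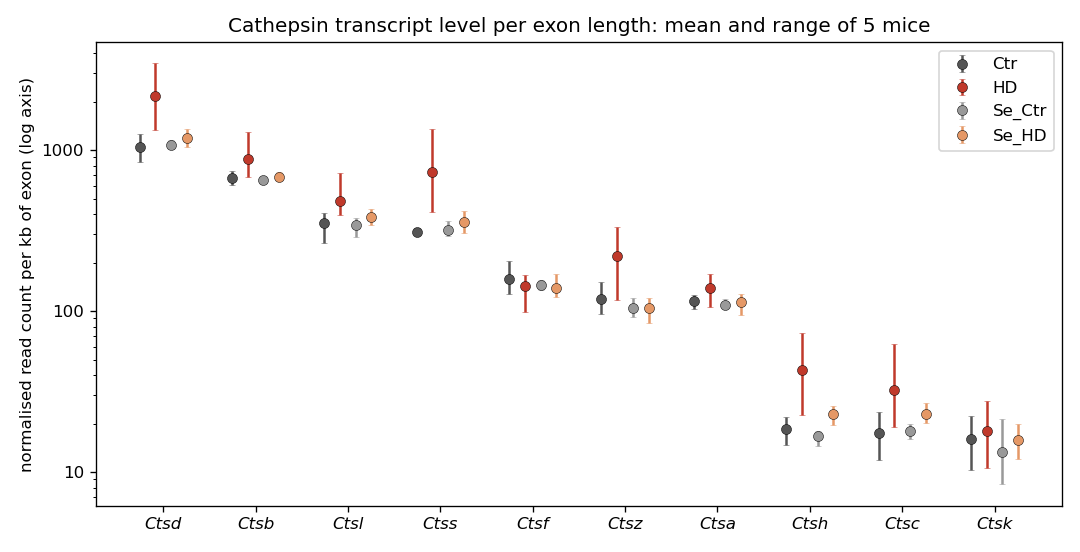
Normalised read counts per kb of exon (log axis) of 10 cathepsins in Ctr, HD, Se_Ctr and Se_HD mice. Points are means of 5 mice and bars run from the lowest to the highest mouse. Ctsd was highest at 1051 in Ctr, and Ctss stood at 311 in Ctr and 732 in HD mice.

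The genes lie on 7 chromosomes of NCBIM37 and are all annotated as protein coding. Ctss (chr3:95330708-95360325, plus strand) and Ctsk (chr3:95303208-95313284, plus strand) are neighbours on chromosome 3, Ctsa (chr2:164658373-164666532, plus strand) and Ctsz (chr2:174252994-174264540, minus strand) share chromosome 2, and Ctsc (chr7:95426595-95459398, plus strand) and Ctsd (chr7:149557053-149573943, minus strand) share chromosome 7. Ctsb is at chr14:63741302-63764758, plus strand, Ctsf at chr19:4855129-4860912, plus strand, Ctsh at chr9:89948990-89970927, plus strand, and Ctsl at chr13:64464522-64471614, minus strand. Ctsa overlaps Pltp and Neurl2, Ctsb overlaps Fdft1 and Ctsz overlaps Th1l, all on the opposite strand. Ctsd overlaps 6330512M04Rik and Ctss overlaps the pseudogene Hmgb1-ps5, both on the strand of the cathepsin. Ctsc overlaps the noncoding gene Gm17710 on the opposite strand. The strand setting of the authors' counting and its handling of reads shared by overlapping genes are not given in the sources used here. How such overlaps affect the counts is therefore not known. Hmgb1-ps5 and Gm17710 are not among the genes with values. The other partners had a mean of 403 (Pltp), 13.0 (Neurl2), 498 (Fdft1), 265 (Th1l) and 81.5 (6330512M04Rik) normalised counts.

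The start regions of the genes were searched for short motifs. RefSeq promoter windows (GRCm38.p6, from 250 bases before to 50 after the start) were found for 8 of the 10 genes, with 9 windows in all. They were searched on both strands for CACGTG, a palindrome of the kind bound by the lysosomal transcription factor Tfeb, and for GAGGAAGT or its reverse complement ACTTCCTC, of the kind bound by the myeloid factor PU.1. CACGTG was in 4 of the 9 windows and in 7.15% of 32851 promoter windows. GAGGAAGT was in 2 of the 9 and in 3.2% of all. The windows of Ctsk and Ctsz held no match, and Ctsb and Ctsh had no window. Whether a match bears on how the genes varied among mice was not tested. In the stretches below, capitals mark the matched letters, and the strand is that of the gene.
Ctsd (chr7:142387894-142387951, minus strand): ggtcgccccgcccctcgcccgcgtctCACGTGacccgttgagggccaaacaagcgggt
Ctsl (chr13:64370725-64370770, minus strand): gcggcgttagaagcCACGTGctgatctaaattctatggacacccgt
Ctsf (chr19:4855060-4855117, plus strand): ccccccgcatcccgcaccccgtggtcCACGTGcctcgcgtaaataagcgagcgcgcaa
Ctsa (chr2:164833735-164833782, plus strand): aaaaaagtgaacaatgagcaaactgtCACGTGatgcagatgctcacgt
Ctss (chr3:95526758-95526795, plus strand): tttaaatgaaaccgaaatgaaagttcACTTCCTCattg
Ctsc (chr7:88277908-88277967, plus strand): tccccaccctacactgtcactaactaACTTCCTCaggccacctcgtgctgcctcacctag
Counted from the start, the match shown began at base -98 in Ctsd, -236 in Ctsl, -79 in Ctsf, -12 in Ctsa, -2 in Ctss and -151 in Ctsc. Ctsd and Ctsa each held a second CACGTG, which began at base -245 in Ctsd and at base 6 in Ctsa, where the printed stretch ends just before the last base of that match. A match describes the letters of the window and not a bound site.

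The first comparison is that of HD with Ctr mice, the exposure contrast of the study, given here as a description. Ctss, an endopeptidase active also at neutral pH and known for cleaving the invariant chain in antigen-presenting cells, had 437, 446, 421, 403 and 405 normalised counts in the 5 Ctr mice. In the 5 HD mice it had 564, 1837, 596, 804 and 1172. Every HD mouse was above every Ctr mouse, and the log2 difference was 1.09 (SE 0.22). Ctsd, the main aspartic protease of the lysosome, had 2729, 2508, 2713, 2120 and 3163 in Ctr mice. HD mice had 3537, 8699, 3375, 4494 and 7364, again with no overlap and a log2 difference of 0.96 (SE 0.20). Ctsh had 74.9, 64.7, 75.6, 50.7 and 55.0 in Ctr mice. In HD mice its values were 124, 253, 77.6, 133 and 157, with no overlap but with HD replicate 3 close to the highest control, and the log2 difference was 1.11 (SE 0.23).

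In the other 7 genes the HD and Ctr ranges overlapped. Ctsc was between 68.8 and 137 in Ctr mice and at 141, 360, 109.9, 159 and 167 in HD mice, so that only HD replicate 3 lay within the control range. Its log2 difference was 0.79 (SE 0.25). Ctsz was between 139 and 219.8 in Ctr mice and at 235, 479, 168, 228 and 473 in HD mice, with a log2 difference of 0.79 (SE 0.23). Again only HD replicate 3 lay within the control range. Ctsl was between 521 and 800.5 in Ctr mice, and its HD values were 921, 1426, 776, 818 and 822, with a log2 difference of 0.44 (SE 0.15). Ctsb was between 2873 and 3511 in Ctr mice and at 3228, 6160, 3284, 3738 and 4338 in HD mice, with a log2 difference of 0.35 (SE 0.14). Ctsa was between 485 and 596 in Ctr mice and at 568, 772, 499.9, 634 and 806 in HD mice, with a log2 difference of 0.25 (SE 0.13). Ctsk, at 15.3 to 33.1 in Ctr and 15.7 to 40.8 in HD mice, had a log2 difference of 0.13 (SE 0.29). Ctsf had the only negative value, -0.14 (SE 0.15), with 251.8 to 404.5 in Ctr and 196 to 331 in HD mice.

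The genes thus fell into 3 without overlap, 5 with a positive log2 difference between 0.25 and 0.79 above its SE, and Ctsk and Ctsf with differences below their SE. The median of the 10 log2 differences was 0.61, against 0.01 over the 20031 genes tested. HD values stood above all Ctr values without overlap for 3 of the 10 cathepsins and for 0.978% of all genes. For reference, a Benjamini-Hochberg adjusted p under 0.05 in limma covered 1 of the 10 cathepsins, Ctss, and 0.13% of all genes. Nothing is read from this count, because the contrast was known when the genes were chosen. HD minus LD gave a median log2 difference of 0.56, with no overlap for Ctsd, Ctsl and Ctss (0.869% of genes), and used the same HD mice.

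**Figure D2:**
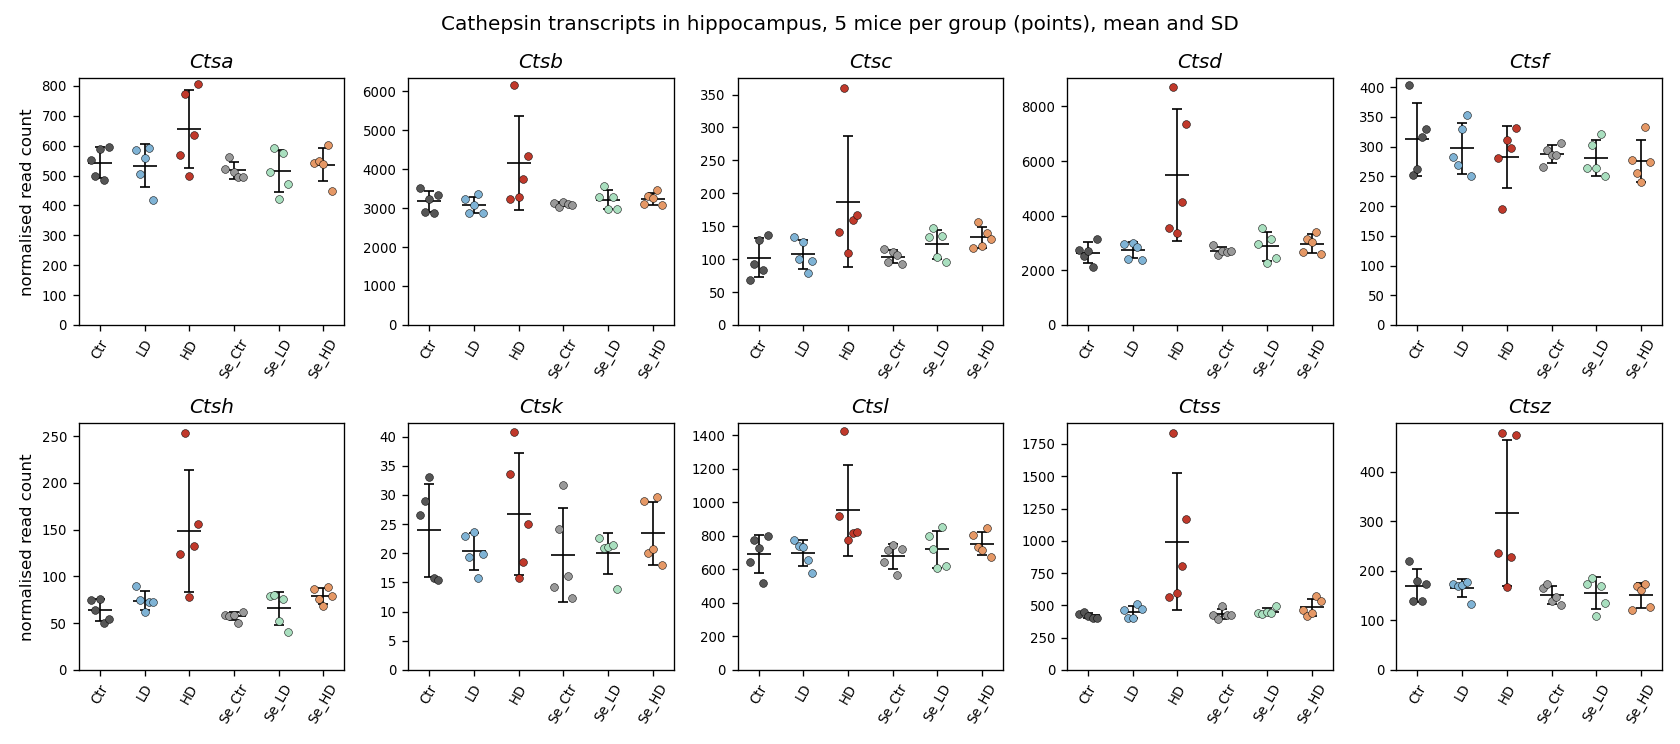
Normalised read counts of 10 cathepsins, 1 panel per gene, in 6 groups of 5 mice. Points are mice, bars are the mean and SD. HD mice spread widely, as for Ctss between 564 and 1837, while Ctr mice lay between 403 and 446 and Se_HD mice between 417 and 571.

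By SD, HD mice differed among themselves more than the mice of any other group for Ctsa, Ctsb, Ctsc, Ctsd, Ctsh, Ctsk, Ctsl, Ctss and Ctsz, and Ctsf was the exception. Relative to the mean, Ctsk varied about as much in Se_Ctr mice (40.8%) as in HD mice (39.2%). Ctsd had an SD of 2403 in HD mice and between 127 and 523 in the other groups. Ctss had an SD of 529.8 in HD mice, against 18.8 to 64.6 elsewhere. HD replicate 2 had the highest value of its group in 8 of the 10 genes and the lowest in Ctsf, where it was below every Ctr mouse. HD replicate 5 was highest for the other two genes, Ctsa and Ctsf. HD replicate 3 had the lowest value in 7 genes, and exceeded every Ctr mouse only for Ctsd, Ctsh and Ctss. HD replicates 1, 4 and 5 exceeded every Ctr mouse in 7, 8 and 8 genes. Without HD replicate 2 the log2 difference of Ctss was 0.83, that of Ctsd 0.76 and that of Ctsh 0.90, the lowest values with a single mouse left out. The lowest such value was 0.525 for Ctsc, 0.61 for Ctsz, 0.28 for Ctsl, 0.20 for Ctsb and 0.17 for Ctsa.

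Markers of microglia were higher in HD mice too. The summed level of 16 microglia markers, among them Aif1, Cx3cr1, P2ry12, Tmem119, Csf1r, C1qa, Itgam and Tyrobp, was between 3386 and 3714 in Ctr mice and between 4278 and 10042 in HD mice. None of the 16 was at 0 in a whole group. All 16 had a positive HD minus Ctr difference, with a median log2 value of 0.80. For reference, 5 of them passed an adjusted p under 0.05 in limma, against 0.13% of all genes. No test is read from the marker counts that involve HD mice, since the lists were chosen with results of these mice known. The sum of 8 astrocyte markers was 49157 to 58606 in Ctr and 59423 to 91900 in HD mice, and 1 of the 8, Gfap, passed an adjusted p under 0.05. Gfap alone was at 1430 to 1988 in Ctr and 4080 to 32820 in HD mice. Without it the sum of the other 7 was 47227 to 57176 in Ctr and 55343 to 62811 in HD mice, so that the groups overlapped. The sum of 7 choroid plexus markers ran from 811 to 31010 in Ctr and from 6972 to 29183 in HD mice, so these markers varied widely within both groups. Their median sum was 10816 in Ctr and 26939 in HD mice, and all 7 had a positive HD minus Ctr difference, with a median log2 value of 1.42 and 0 past an adjusted p under 0.05. The part of these cells in the cathepsin levels was not tested. In RNA of whole tissue, more cells of a type and more RNA per cell cannot be told apart.

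LD minus Ctr asks whether the low dose moved the same genes, using the same Ctr mice. None of the 10 cathepsins differed in limma at an adjusted p under 0.05 (0% of 20031 genes), and all 10 had an adjusted p of 0.999. At an unadjusted p under 0.05 the count was 0 of 10 (3.01% of genes), and edgeR and DESeq2 called 0 of 10 as well. The log2 differences were positive for 5 genes and negative for 5, from -0.17 for Ctsk to 0.21 for Ctsh. Ctss had 468, 406, 401, 507 and 470.4 normalised counts in LD mice, overlapping with the Ctr range, and its difference was 0.09 with a 95% interval from -0.36 to 0.54. Ctsd had 2960, 2429, 3006, 2846 and 2397, all within the Ctr range, and a difference of 0.05 with an interval from -0.37 to 0.47. The widest interval, from -0.78 to 0.43, was that of Ctsk, the gene with the fewest reads.

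The selenium groups gave contrasts labelled low and high dose in mice outside the HD minus Ctr contrast that chose the genes, although earlier results of these mice were known too. In Se_HD minus Se_Ctr, 0 of 10 cathepsins passed an adjusted p under 0.05 in limma (0% of 19679 genes), in edgeR or in DESeq2, and the lowest adjusted p was 1. Ctsc and Ctsh were higher in every Se_HD than in every Se_Ctr mouse, and they were the 2 genes with an unadjusted p under 0.05. Over all genes, 0.478% did not overlap in this direction and 2.43% had such a p with a positive difference. Ctsc had 115, 95.1, 110.2, 107 and 92.7 normalised counts in Se_Ctr mice and 117, 156, 119.9, 140.0 and 131 in Se_HD mice. Its log2 difference was 0.35 (95% interval 0.09 to 0.61, unadjusted p = 0.0102, adjusted p = 1). The gap between both groups was small, since the lowest Se_HD mouse had 117 and the highest Se_Ctr mouse 115. Ctsh had 58.9, 57.9, 58.6, 50.2 and 62.0 in Se_Ctr mice and 86.2, 75.4, 68.0, 88.8 and 78.6 in Se_HD mice. Its log2 difference was 0.46 (interval 0.11 to 0.80, unadjusted p = 0.0124, adjusted p = 1).

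Ctss was at 423, 395, 493, 425 and 423 in Se_Ctr mice and at 466, 417, 439, 571 and 531 in Se_HD mice. Its groups overlapped, and the log2 difference of 0.16 had an interval from -0.01 to 0.34. Ctsd was between 2574 and 2917 in Se_Ctr mice and at 2666, 3154, 3055, 3419 and 2617 in Se_HD mice, with a log2 difference of 0.13 and an interval from -0.08 to 0.34. Ctsz was at 151 ± 17.4 in Se_Ctr and 150.5 ± 24.5 in Se_HD mice (SD, n = 5), and Ctsf and Ctsz were the 2 genes with a negative difference. The median of the 10 was 0.14, against -0.01 over all genes. Se_HD replicate 4 had the highest value of its group in 9 of the 10 genes. The microglia marker sum was 3290 to 4101 in Se_Ctr and 3617 to 4190 in Se_HD mice, and 0 of the 16 markers passed at an adjusted or an unadjusted p under 0.05. The choroid plexus marker sum was 6160.5 to 21020 in Se_Ctr and 9291 to 34300 in Se_HD mice, and all 7 of these markers had a positive difference, with a median log2 value of 0.74. The sum of 6 fibroblast and mural cell markers was 585 to 1036 in Se_Ctr and 739.9 to 1714 in Se_HD mice, with a positive difference for 5 of the 6 and a median of 0.72. In limma 0 of these 7 and 0 of these 6 passed an adjusted p under 0.05, with 0 and 4 at an unadjusted p under 0.05. The astrocyte marker sum was 48107 to 54278 in Se_Ctr and 50054 to 53093 in Se_HD mice, with 0 of 8 at an adjusted p and 2 at an unadjusted p under 0.05. Among these, Gfap was at 1596 to 2165 in Se_Ctr and 2264 to 2909 in Se_HD mice, without overlap. The part of these cells in Ctsc and Ctsh was not tested.

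Se_LD minus Se_Ctr gave 0 of 10 in limma at an adjusted p under 0.05 (0% of genes) and 0 of 10 at an unadjusted p under 0.05 (3.31%), with 0 in edgeR and DESeq2. With the choroid plexus level as a covariate, chosen after seeing the data, 2 had an unadjusted p under 0.05, and in Se_HD minus Se_Ctr 3 did. Calls rose over all 19679 genes too with this covariate, from 652 to 1121 in Se_LD minus Se_Ctr and from 825 to 1044 in Se_HD minus Se_Ctr. Without it, the log2 differences of the cathepsins in Se_LD minus Se_Ctr ran from -0.04 for Ctsf to 0.23 for Ctsc. In Se_HD minus Se_LD the counts were also 0 (0% of genes adjusted, 4.94% unadjusted), and Ctsh had the largest log2 difference of the 10, 0.31, with an interval from -0.04 to 0.65. It ran from 0.15 to 0.39 with a single mouse left out and from 0.10 to 0.31 over the other alternatives. In this contrast all 7 choroid plexus markers had a positive difference, with a median log2 value of 1.75. Of 6 fibroblast and mural cell markers 5 were positive, with a median of 0.69. The part of these cells was not tested. Selenium without mercury, Se_Ctr minus Ctr, gave 0 of 10 (0% of genes adjusted, 4% unadjusted), with values from -0.28 for Ctsk to 0.07 for Ctsc. Se_LD minus LD gave 0 of 10 (0% adjusted, 2.86% unadjusted), with values from -0.20 for Ctsh to 0.20 for Ctsc.

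**Figure D3:**
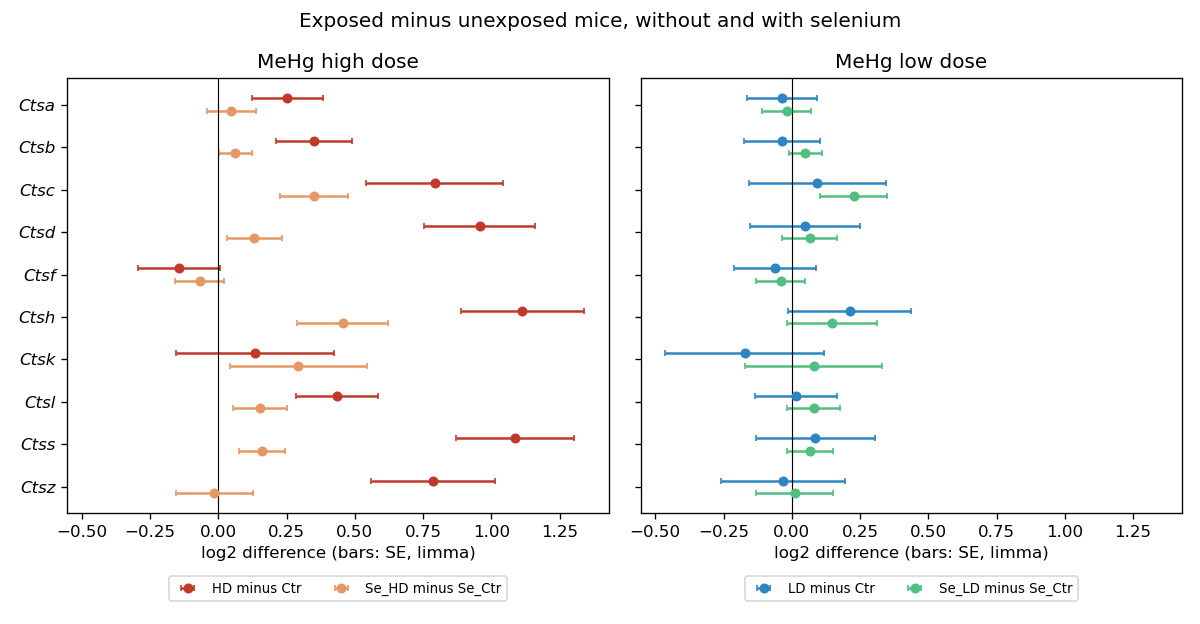
Log2 difference between exposed and unexposed mice for 10 cathepsins, without and with selenium, at the high dose (left) and the low dose (right). Points are limma estimates from 5 mice a group and bars are their SE. Ctss stood at 1.09 in HD minus Ctr and at 0.16 in Se_HD minus Se_Ctr.

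The high-dose mice of both diets were then set against each other, as a description. The genes had been chosen with their high values in these HD mice known, so lower values in another group follow in part from the choice, and no test is read for the cathepsins here. All 10 had a negative Se_HD minus HD estimate, while 48.4% of all genes had a positive one, with a median of -0.34 against -0.01 over all genes. The log2 difference of Ctss was -0.90 (SE 0.18), with a mean of 994.5 normalised counts in HD and 485 in Se_HD mice. Ctsz had -0.96 (SE 0.20), with means of 317 and 150.5. Ctsd had -0.78 (SE 0.17), with means of 5494 and 2982, and Ctsh had -0.80 (SE 0.21). None of the 10 was free of overlap between the groups (0.903% of genes in this direction), and for Ctss HD replicate 1, with 564, and for Ctsd HD replicate 3, with 3375, lay within the Se_HD range.

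For reference, 3 of the 10, Ctss, Ctsz and Ctsd, had an adjusted p under 0.05 in limma, against 0.327% of 21383 genes. This count was 0 without HD replicate 5, and 1 without HD replicate 2 or without Se_HD replicate 1, 2 or 5. With each single mouse left out the log2 difference ran from -0.64 to -1.06 for Ctss, from -0.78 to -1.15 for Ctsz and from -0.59 to -0.93 for Ctsd. The microglia marker sum was 4278 to 10042 in HD and 3617 to 4190 in Se_HD mice, and for reference 8 of the 16 markers fell at an adjusted p under 0.05. All 8 astrocyte markers had a negative difference, with a median log2 value of -0.31, and 1 passed an adjusted p under 0.05. Gfap was at 4080 to 32820 in HD and 2264 to 2909 in Se_HD mice, without overlap. All 7 neuron markers had a positive difference, with a median of 0.12, and 1 passed an adjusted p under 0.05. No test is read from these marker counts. The part of these cells was not tested. The choroid plexus marker sum was 6972 to 29183 in HD and 9291 to 34300 in Se_HD mice. With this level as a covariate, an alternative chosen after seeing the data, the count of cathepsins was also 3 (72 of all genes). It was 2 with sets of 6 consecutive library numbers as a covariate (54 of all genes), also added after seeing the data. In limma without a variance trend it was 0 (27 of all genes).

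The difference between the HD effects of both diets was estimated as an interaction over all 30 libraries. It holds the HD minus Ctr difference that was known when the genes were chosen, so its values too are a description. They were negative for 8 of the 10 cathepsins and positive for 48% of all genes, with a median of -0.36 against -0.01 over all genes. The interaction was -0.93 for Ctss (95% interval -1.43 to -0.42), -0.83 for Ctsd (interval -1.32 to -0.33), -0.80 for Ctsz (interval -1.38 to -0.22) and -0.66 for Ctsh (interval -1.25 to -0.07). For reference, 0 of 10 had an adjusted p under 0.05 in limma (0% of genes), in edgeR or in DESeq2. The interaction at the low dose, which sets no HD mice against another group, gave 0 of 10 at an adjusted p (0% of genes) and 0 of 10 at an unadjusted p (3.75% of genes). Its values were between -0.07 and 0.25.

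Within groups, the cathepsins were compared with the microglia level of the same library, the mean log2 level of the 16 markers. Group means were removed, so that differences between groups did not enter. Ctss followed this level most closely, with Pearson r = 0.916 and Spearman rho = 0.71 over 30 libraries (permutation p = 0.00025 and 0.00104, adjusted p = 0.176 and 0.158 over 14280 genes). Only 0.007% of genes had an r as high, a share that counts Ctss itself, so no other of the 14280 genes reached it. Ctsb had r = 0.815 and rho = 0.537 (adjusted p = 0.265 and 0.335), Ctsd r = 0.806 and rho = 0.36 (adjusted p = 0.336 and 0.656), and Ctsz r = 0.773 and rho = 0.48 (adjusted p = 0.299 and 0.469). Ctsh (0.641), Ctsa (0.602) and Ctsc (0.533) had lower r values, and their rho values were 0.295, 0.349 and 0.114. Ctsl (0.349), Ctsk (0.32) and Ctsf (-0.2) were below 0.5. No gene of the 14280 passed an adjusted permutation p under 0.05 (0%), so no relation is called here.

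The relation rested largely on HD mice, which held both libraries farthest from the median, HD replicates 2 and 3. Without these 2 libraries r was 0.83 for Ctss, 0.63 for Ctsd, 0.60 for Ctsz, 0.598 for Ctsb, 0.189 for Ctsh and 0.0 for Ctsc. Over the 25 libraries without HD, chosen after seeing the data, Ctss had r = 0.591 and rho = 0.505 (adjusted p = 0.251 and 0.397), while Ctsd had r = 0.037, Ctsz 0.203, Ctsb 0.31 and Ctsh -0.012. Ctsf had 0.362, Ctsa 0.059, Ctsk 0.023, Ctsl -0.241 and Ctsc -0.296. Over these 25 libraries 0.224% of genes passed an adjusted p under 0.05, and 0 of the 10 cathepsins did. All libraries share one set of scaling factors.

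**Figure D4:**
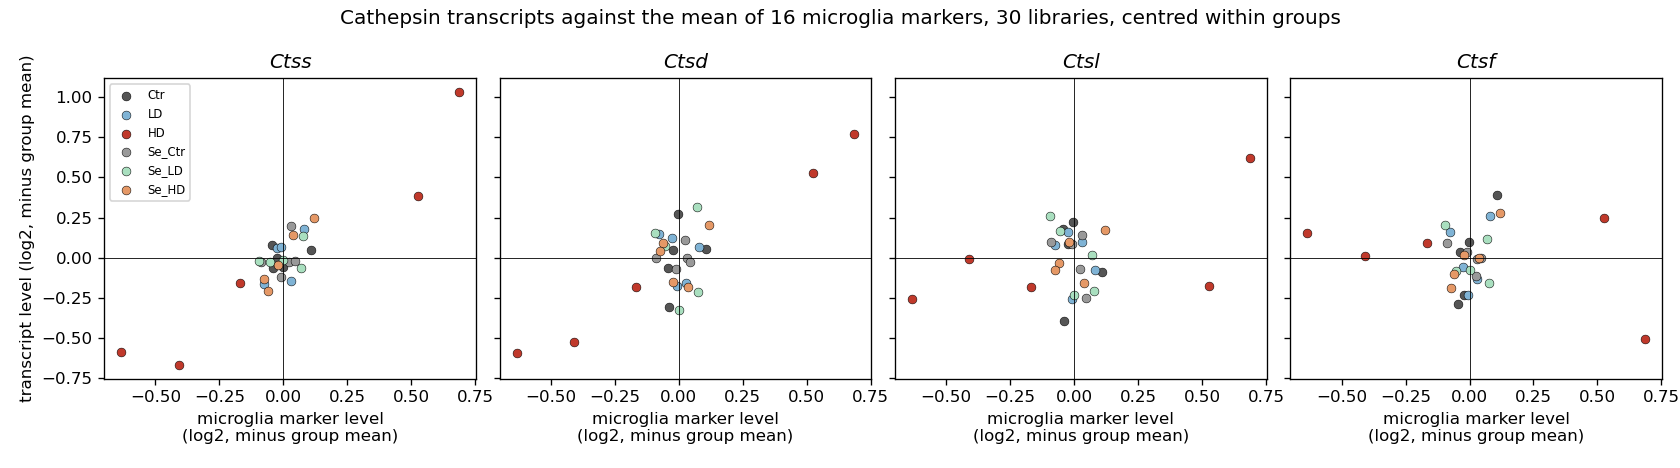
Transcript level of Ctss, Ctsd, Ctsl and Ctsf (log2, minus the group mean) against the mean level of 16 microglia markers (log2, minus the group mean) in 30 libraries, coloured by group. Pearson r was 0.916, 0.806, 0.349 and -0.2, and the 5 HD mice span most of the range.

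The genes whose level moved most like that of each cathepsin were found over the same 30 libraries, with group means removed, among 14296 genes with a mean of at least 10 normalised counts. Correlations are given as a description. For Ctsb the nearest gene was Lgmn, the asparaginyl endopeptidase of the lysosome, with r = 0.947, followed by Ctsd with 0.912 and Gfap, an astrocyte filament, with 0.898. For Ctsd the nearest were Ctsb, Ctsz (0.893) and Lgmn (0.887). For Ctsz they were Ctsd, Ctsa (0.857) and Grn (0.843), and for Ctsa they were Ctsz, Ctsd (0.856) and the amino acid transporter Slc38a3 (0.83). Each of Ctsa, Ctsb, Ctsd and Ctsz thus had at least 1 other of these 4 among its nearest genes, and the other 6 had no cathepsin there. For Ctss the nearest were B2m, the light chain of MHC class I (0.893), Olfml3 (0.886) and Lcp1 (0.876). Ctsl was closest to Ifi27l1 (0.869), Tspo (0.831) and Cd63 (0.83), Ctsc to A2m (0.838), S100a6 (0.822) and Lamp2 (0.817), and Ctsh to Anxa5 (0.821), Clic1 (0.806) and Rhoj (0.797). Ctsf was closest to Tmem145 (0.834), Cbx7 (0.822) and Pitpnm1 (0.821), and Ctsk, with the fewest reads, to Aspg (0.677), Tle6 (0.658) and Sap30l (0.64). Among the 45 pairs of cathepsins r had a median of 0.588, and 27 pairs were above 0.5. The share above 0.5 among all pairs of genes was not computed, so nothing is read from such counts. Over the 25 libraries without HD the median was 0.405 and 13 pairs were above 0.5, with Ctsb and Ctsd at 0.856. Over the same 25 libraries Ctss had r between -0.249 and 0.187 with each of the other 9 cathepsins, where the 30 libraries had given 0.826 with Ctsb and 0.743 with Ctsd. Among the nearest genes named above, r was 0.499 for Gfap with Ctsb, and 0.45 and 0.349 for Olfml3 and Lcp1 with Ctss.

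Other genes of cathepsin biology were read from fixed lists. Of 12 further cathepsins, Ctse, Ctso and Ctsw were in the values, and 0 of 3 passed an adjusted p under 0.05 in any contrast. Ctso, a cysteine protease, was at 253 normalised counts in Ctr, 298 in HD and 276 in Se_HD mice. Ctse, an aspartic protease of endosomes, was between 0 and 2.25 in Ctr mice, between 1.74 and 9.79 in HD mice and between 0 and 2.72 in Se_HD mice. Of 13 listed inhibitors 10 were in the values. Cst7, the cystatin F that restrains Ctsc and other cysteine cathepsins, was at 13.4, 62.0, 1.74, 20.1 and 36.7 in HD mice. It was between 0 and 5.10 in Ctr mice, between 0 and 0.989 in LD mice and at 0 in all 5 Se_HD mice. The HD and Se_HD mice did not overlap. For reference, an adjusted p under 0.05 in limma covered 0 of the 10 inhibitors in HD minus Ctr, and 1, Cst7, both in HD minus LD (0.0499% of all genes) and in Se_HD minus HD. No test is read from these counts, since the lists were chosen with results of these HD mice known. Cst3, the abundant secreted cystatin C, had a mean of 3828 in Ctr (2624 to 4662), 4624 in HD (3282 to 7332) and 3629 in Se_HD mice (2836 to 4279). Serpina3n, a serpin released by astrocytes, was between 548 and 798 in Ctr and between 1042 and 4745 in HD mice, without overlap. Within the selenium mice 0 of 9 tested inhibitors passed an adjusted p under 0.05 in Se_HD minus Se_Ctr or Se_HD minus Se_LD. Ctla2a, whose product resembles a cathepsin propeptide and which is named after its values were seen, was at 33.1 to 57.0 in Se_Ctr, 34.7 to 59.3 in Se_LD and 65.4 to 90.9 in Se_HD mice, without overlap.

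Of 15 genes for sorting, processing and activation, 0 had an adjusted p under 0.05 in HD minus Ctr, and in Se_HD minus HD it was 1 (0.327% of all genes), given for reference as for the cathepsins. That gene was Grn, the progranulin gene, whose product is carried to lysosomes and cleaved there. It was at 499, 1021, 419, 584 and 951 in HD mice and between 375 and 495 in Se_HD mice, with a log2 difference of -0.67 (SE 0.16). Lgmn, which cleaves cathepsin precursors, was between 528 and 658 in Ctr mice and between 597 and 1312 in HD mice. Psap, the saposin precursor, with 13680 in Ctr and 14320 in HD mice, and the sorting receptor Sort1, with 4549 and 4226, had log2 differences of 0.07 and -0.11. Atp6ap1 and Atp6ap2, parts of the proton pump complex, had -0.08 and 0.08. In the list of lysosome transcription, 0 of 4 tested genes passed in HD minus Ctr and 0 of 5 in Se_HD minus HD, also at an unadjusted p under 0.05. Mcoln1, the lysosomal calcium channel, had a log2 difference of -0.02 in HD minus Ctr, and the transcription factors Mitf, Tfe3 and Tfeb had 0.03, 0.07 and 0.30. Tfeb was between 25.6 and 38.7 in Ctr mice and between 35.8 and 44.2 in HD mice. Of 7 partners of Ctss in antigen processing, 0 passed in HD minus Ctr. Cd74, the invariant chain, had a mean of 18.8 in Ctr mice (range 6.76 to 42.5) and 22.1 in HD mice (range 12.1 to 31.0). Ifi30, a lysosomal thiol reductase, had means of 39.4 (range 32.7 to 44.75) and 71.0 (range 35.8 to 152.6). Its highest HD value was that of HD replicate 2, and the groups overlapped for both genes. In Se_HD minus Se_Ctr and Se_HD minus Se_LD 0 of the 7 passed an adjusted p under 0.05, and 1 and 3 had an unadjusted p under 0.05. Cd74 was at 17.9 to 63.7 in Se_HD mice, above the Se_Ctr range of 7.17 to 16.4 and the Se_LD range of 0 to 15.5.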

How the data were processed

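Per the labels, hippocampus RNA of 30 mice was made into stranded TruSeq libraries and sequenced as single-end reads. The authors trimmed reads with Trim Galore 0.4.2, mapped them with HISAT2 to NCBIM37, counted them with featureCounts, removed features with a row sum under 10 reads and divided the counts by DESeq2 size factors. The deposited values are these normalised counts, treated here as a signal, and each was a whole number of reads within 0.01 after division by one step per library. Gene symbols from the NCBIM37 annotation were found for 21326 of 21412 identifiers.

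The log2 of each value plus 1 was fitted with limma 3.58.1 (R 4.3.3) with a variance trend, for genes with a sum of at least 10, over 15 libraries within a diet (20031 or 19679 genes) or 30 between diets (21383 genes). P-values were adjusted over all genes (Benjamini-Hochberg). The design file planned adjustment of the relations over the 10 cathepsins, and it was done over 14280 genes instead. These relations used 100000 permutations within groups, two-sided. Replicates are mice. The fit was tested on simulated data.

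The cathepsins, marker lists and gene lists were chosen with earlier results of these data known, those of the selenium mice included. Named from the lists are genes called between diets or within selenium mice, and some of the 4 highest in each list, with Lgmn as a nearest gene and Ctla2a added after its values were seen. Tfeb, Tfe3 and Tfec were matched through older symbols. The fits were repeated with pseudocounts of 0.1 and 10, without the filter or with a mean of 10 as the minimum, with quantile normalization, TMM factors, no trend, edgeR 4.0.16 and DESeq2 1.42.0 on recovered reads, all libraries in one fit, each mouse left out, and, added after seeing the data, the choroid plexus level or sets of consecutive library numbers as a covariate and 25 libraries without HD. Among the 10 cathepsins, library depth limits Ctsk most. One gene is not reported here by name, although counts and sums over its list still include it.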

Additional observations from a re-analysis of the deposited data

Results flagged for a closer look

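The 10 cathepsins and the microglia and choroid plexus marker sums gave 72 groups of 5 mice, and in 5 of them 1 mouse stood far from the other 4, by its gap to the nearest mouse over the whole range of the group (critical value 0.71). Chance alone would give about 3.6. HD replicate 2 was far for Ctsc, with a ratio of 0.773 (360 normalised counts against a median of 150.2), and for Ctsl, with 0.777 (1426 against 819.9). Se_LD replicate 5 was far for Ctsk, with 0.809 (13.9 against 21.3), and for Ctss, with 0.751 (495 against 444). LD replicate 5 was far for Ctsz, with 0.793 (133 against 172).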

How the results depend on the processing

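The labels give no replicate numbers shared between groups, so the only blocked fit was by sets of library numbers. In the 7 comparisons that set no HD mice against another group, 1610 differences of single cathepsins were recomputed under an alternative, with 0 calls gained, lost or reversed, and the sign changed in 108 of them, none called either way. The counts that involve HD mice are given for reference and are no test of the cathepsins. The number of cathepsins past an adjusted p under 0.05 in HD minus Ctr, 1 in limma, was 0 with pseudocounts of 0.1 or 10, a mean of at least 10, no filter, TMM or limma without a trend. It was 3 with edgeR, 4 with DESeq2 and 4 with all 30 libraries in one fit, and lay between 0 and 4 with one mouse left out (3 without HD replicate 1 and 4 without HD replicate 3). Over all genes the count was 26 in limma, 45 with edgeR, 196 with DESeq2 and 200 with all 30 libraries in one fit. In HD minus LD the count of 0 cathepsins became 2 with edgeR, 4 with DESeq2 and 4 with all 30 libraries in one fit, and lay between 0 and 4 with one mouse left out. Over all genes it was 10 in limma, 38 with edgeR, 174 with DESeq2 and 141 with all 30 libraries in one fit. In Se_HD minus HD the count of 3 cathepsins became 0 with limma without a trend, and lay between 0 and 4 with one mouse left out. Quantile normalization left 2, without Ctsd, and edgeR and DESeq2 each gave 4, with Ctsh added. All genes gave 70 calls in limma, 27 without a trend, 56 with quantile normalization, 167 with edgeR and 228 with DESeq2. The library numbers in the labels form 5 sets of 6 in a row, each with 1 mouse of every group, and the labels do not say what the numbers mark. With these sets as a covariate, added after seeing the data, the counts of cathepsins stayed at 1 in HD minus Ctr and 0 in HD minus LD. That of Se_HD minus HD was 2, without Ctsd, and all other counts of cathepsins stayed at 0. Over all genes this fit gave 27 in HD minus Ctr, 12 in HD minus LD and 54 in Se_HD minus HD. The 2 cathepsins at an unadjusted p under 0.05 in Se_HD minus Se_Ctr were 1 with all 30 libraries in one fit. Over all genes such calls went from 825 of 19679 to 576 of 21383. The cathepsins with Pearson r above 0.5 to the microglia level, 7 of 10, were 4 without the 2 farthest libraries and 1 over 25 libraries without HD. Over 30 libraries 3.592% of genes had an r at least as high as Ctsc, the lowest of the 7. Over the 25 libraries 0.532% of genes had one at least as high as Ctss. The causes were not tested.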
